A study of Mus musculus with 4 samples.

Results

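Vascular endothelial growth factors (VEGFs) are secreted ligands that direct the growth, survival and permeability of blood vessels. They act on receptor tyrosine kinases of the endothelial surface. VEGFR2, encoded by *Kdr*, carries most of the growth signal, whereas VEGFR1, encoded by *Flt1*, binds ligand tightly, signals weakly and also exists as a soluble form that traps ligand. VEGFR3, encoded by *Flt4*, responds to VEGF-C, and the neuropilins (*Nrp1*, *Nrp2*) are co-receptors that VEGFs share with class 3 semaphorins. This system drives the entry of vessels into the embryonic brain. The genes examined were chosen by name, as 4 ligand genes, 3 receptor genes and 2 neuropilin genes. Of these 9 genes, 8 were found among the 12693 gene symbols of the table, and *Vegfa* was not analysed here. All 8 passed the filter on low values and were among the 12472 genes tested.

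RNA was sequenced from the mouse brain at embryonic day 18 (E18). Per the study's methods the cells came from the cerebral cortex and had been sorted by CD31, an endothelial surface protein, and its text names Smart-seq2, a protocol made for very small amounts of RNA. The labels instead describe microgram amounts of total RNA from brain and mention no sort. These descriptions alone do not settle the difference, which bears on what cells every value below was measured in. Levels of cell type markers are given below. There were 2 wild-type samples (genotype WT) and 2 *Foxq1* cKO samples (genotype FOXQ1fl/fl;Tie2-Cre), all of strain C57BL/6, labelled as brain and carrying no other treatment. FOXQ1 is a forkhead transcription factor, and Tie2-Cre deletes its floxed gene in cells with an active *Tek* promoter, which include blood-forming cells beside endothelium. The study's methods give littermates without Cre as controls, and neither the number of embryos in a sample nor the presence of the floxed allele in the controls is given in the sources used here. Nothing says that the samples of a group came from separate litters, so p-values measure only the spread between these samples, which may be technical.

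The samples held between 15827166 and 21466436 reads on listed genes. A normalized count is a read count divided by the size factor of its sample. *Foxq1* itself had 353 normalized counts in wild-type 1, 297 in wild-type 2, 5.44 in *Foxq1* cKO 1 and 32.6 in *Foxq1* cKO 2. This matches the labels (log2 fold change -4.47, unadjusted p = 0.00507, adjusted p = 0.857 in limma). On read counts recovered from the normalized values, the adjusted p of *Foxq1* was 0.00837 in DESeq2 and 0.937 in edgeR. Wild-type 1 stood apart from the other samples. Its median absolute log2 difference per gene was 0.526 from wild-type 2 and 0.530 and 0.542 from the *Foxq1* cKO samples, whereas wild-type 2 lay 0.419 and 0.453 from the *Foxq1* cKO samples. Results are therefore given with and without wild-type 1 where it decides them. All 10 endothelial markers were present, led by *Cldn5* (claudin-5, the main tight junction protein of brain vessels) at 126706 to 151977 normalized counts. The pericyte gene *Rgs5* was also abundant, at 89164 to 93044 normalized counts. Per kb of merged exon *Cldn5* ranked 2 among 12678 genes. The 10 endothelial markers summed to 203966 to 246686 normalized counts per sample, and 7 pericyte markers to 145490 to 159999. The sums were 23451 to 26815 for 9 radial glia and astrocyte markers and 4334 to 6401 for 9 neuron markers. The share of each cell type was not tested.

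Per kb of merged exon, *Kdr* was by far the most abundant of the 8 transcripts. It had between 3670.3 and 4005 normalized counts per kb in the 4 samples, and it ranked 140 among 12678 genes with a known length. *Nrp1* came next with a mean of 879 normalized counts per kb over the 4 samples, 4.39 times below *Kdr*, followed by *Flt1* with 834. The ranges of *Nrp1* and *Flt1* overlapped, so their order is not settled. *Flt4* had a mean of 318 normalized counts per kb and its range overlapped neither neighbour. *Nrp2* (152), *Pgf* (129) and *Vegfc* (110.4) followed with overlapping ranges. *Vegfb* was lowest, with a mean of 22.8 normalized counts per kb, 4.84 times below *Vegfc*, and with no overlap between them. The receptors and *Nrp1* thus stood above all 3 ligands in every sample.

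**Figure D1:**
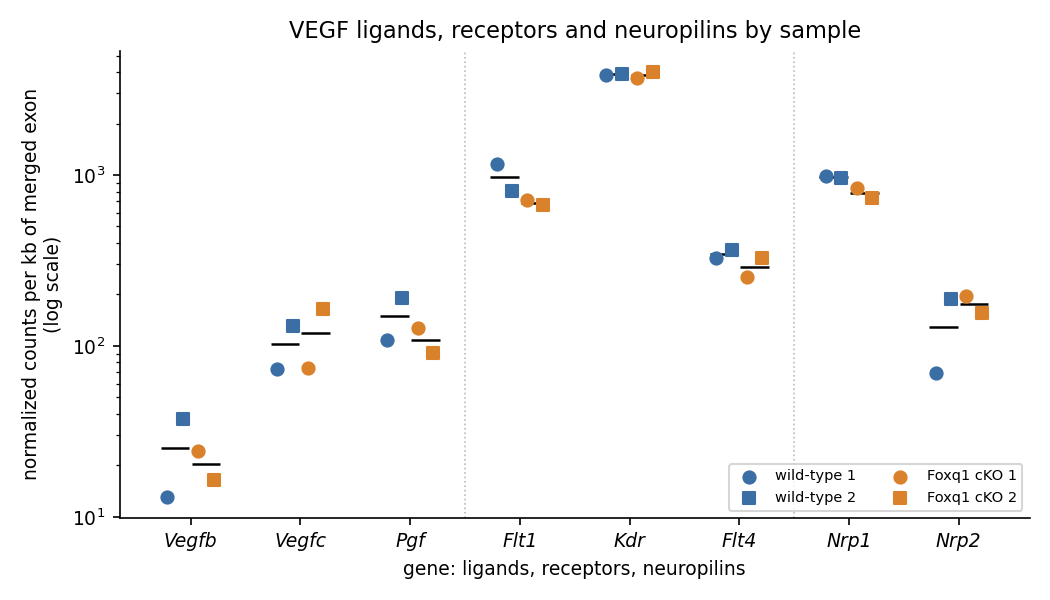
Level of each gene in each sample, in normalized counts per kb of merged exon on a log axis, with circles for replicate 1, squares for replicate 2, wild-type in blue, *Foxq1* cKO in orange and black lines for group means. *Kdr* lies between 3670.3 and 4005 in all samples. The *Flt1*, *Flt4* and *Nrp1* points of both *Foxq1* cKO samples lie below both wild-type points.

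The design asks whether the VEGF system differed when *Foxq1* had been deleted. For *Kdr* no difference was detected. *Flt1*, *Flt4* and *Nrp1* lay lower in each *Foxq1* cKO sample than in either wild-type sample, an order that 18% of all genes tested showed. Their means were 70.4%, 83.3% and 80.3% of wild-type. For the ligands the samples of 1 group differed as much as the groups did. After adjustment over all genes in limma none of the 8 passed 0.05, and before adjustment 1 did, where 5.22% of all genes tested did. In bulk RNA, fewer cells of a type and less RNA per cell cannot be told apart.

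*Kdr* (ENSMUSG00000062960) spans positions 75932827 to 75978458 on the minus strand of chromosome 5 in GRCm38 (GENCODE M21). Its level was 34737 normalized counts in wild-type 1, 35351 in wild-type 2, 33143 in *Foxq1* cKO 1 and 36162 in *Foxq1* cKO 2. The wild-type values lie between the *Foxq1* cKO values, so the groups overlap. The means were 35044 ± 434 (SD, n = 2) and 34653 ± 2135 (SD, n = 2). The log2 fold change, *Foxq1* cKO minus wild-type, was -0.018 (standard error 0.0997, adjusted p = 0.984 from limma). Its 95% interval ran from -0.26 to 0.23 on the log2 scale, which corresponds to 0.835 to 1.17 times the wild-type level. This standard error was the smallest among the 8 genes. The estimate was 0.11 under quantile normalization and also under scaling to the endothelial markers.

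*Flt1* (ENSMUSG00000029648) lies on the same chromosome and strand, at 147561604 to 147726011. Its level was 15578 normalized counts in wild-type 1, 10849 in wild-type 2, 9582 in *Foxq1* cKO 1 and 9017 in *Foxq1* cKO 2. Both *Foxq1* cKO values lie below both wild-type values, and wild-type 1 stands far above the other 3. The means were 13213 ± 3344 (SD, n = 2) and 9299.8 ± 399.6 (SD, n = 2), so the *Foxq1* cKO mean was 70.4% of the wild-type mean. On the log2 scale this was a difference of -0.48 with a standard error of 0.194 and a 95% interval from -0.96 to -0.011. In limma its unadjusted p was 0.0463, rank 602 among the 12472 genes tested, and its adjusted p was 0.857. On the recovered reads the unadjusted p was 0.0175 in DESeq2 and 0.0407 in edgeR, with adjusted p of 0.524 and 0.937. In limma *Flt1* did not pass 0.05 without wild-type 1 (-0.22, unadjusted p = 0.239), without *Foxq1* cKO 1 (-0.53, unadjusted p = 0.111) or without *Foxq1* cKO 2 (-0.44, unadjusted p = 0.167), and without wild-type 2 the estimate was -0.74. The table gives 1 value per gene, so the soluble and the membrane-bound products of *Flt1*, for which GENCODE M21 lists 6 transcripts, were not separated.

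*Flt4* (ENSMUSG00000020357), at 49609263 to 49652739 on the plus strand of chromosome 11, had 2696 normalized counts in wild-type 1, 3014 in wild-type 2, 2082 in *Foxq1* cKO 1 and 2672 in *Foxq1* cKO 2. *Foxq1* cKO 2 lay just under wild-type 1, and the groups did not overlap. The difference was -0.27 on the log2 scale, with a standard error of 0.218 (adjusted p = 0.875 in limma). It was -0.093 without *Foxq1* cKO 1 and -0.45 without *Foxq1* cKO 2. *Flt4* also marks lymphatic endothelium, and of the lymphatic markers *Prox1*, a transcription factor of lymphatic identity, had 431 and 351 normalized counts in wild-type 1 and 2 against 49.0 and 123 in *Foxq1* cKO 1 and 2 (log2 fold change -2.31, unadjusted p = 0.0173, adjusted p = 0.857 from limma). The other lymphatic marker listed, *Pdpn*, had 296 and 325 normalized counts in wild-type 1 and 2 against 360 and 342 in *Foxq1* cKO 1 and 2. Its log2 fold change was 0.18, and *Lyve1* was not analysed here. Thus 1 of these 2 markers was lower at an unadjusted p under 0.05 in limma, beside 3.05% of all genes tested. The summed level of *Prox1* and *Pdpn* was 676 to 726 normalized counts in wild-type and 409 to 465 in *Foxq1* cKO. This lower sum rested on *Prox1*. Whether the *Prox1* reads came from lymphatic cells was not tested, nor was the part of such cells in the *Flt4* value.

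**Figure D2:**
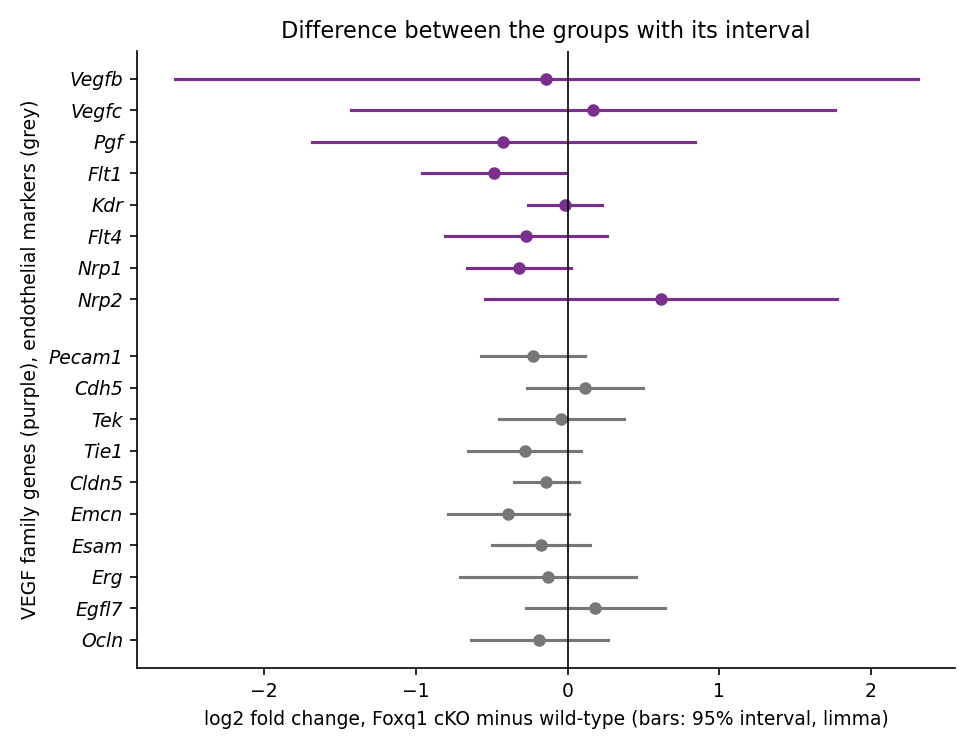
Log2 fold change, *Foxq1* cKO minus wild-type, with its 95% interval from limma, for the VEGF family genes in purple and the 10 endothelial markers in grey. The interval of *Kdr* is narrow and spans 0, that of *Flt1* ends at -0.011, and those of the ligands reach far to both sides.

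The balance between receptors was also compared within each sample, because a ratio within a sample does not depend on the scaling between samples. Per kb, *Flt1* stood at 30.0% and 20.5% of *Kdr* in the wild-type samples and at 19.3% and 16.7% in the *Foxq1* cKO samples. The groups did not overlap, but wild-type 2 and *Foxq1* cKO 1 were close. The difference in log2 ratio was -0.47 against a spread within groups of 0.294 (SD). The exact two-sided permutation test gave p = 0.333, the smallest that 2 samples against 2 can give. Without wild-type 1 the difference was -0.19. *Flt4* stood at 8.51% and 9.35% of *Kdr* in wild-type against 6.89% and 8.11% in *Foxq1* cKO, a log2 difference of -0.26 with the same exact permutation p of 0.333. With any sample left out this difference lay between -0.37 and -0.14. *Kdr* made up 72.2% and 77.0% of the receptor transcripts per kb in wild-type against 79.2% and 80.1% in *Foxq1* cKO.

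**Figure D3:**
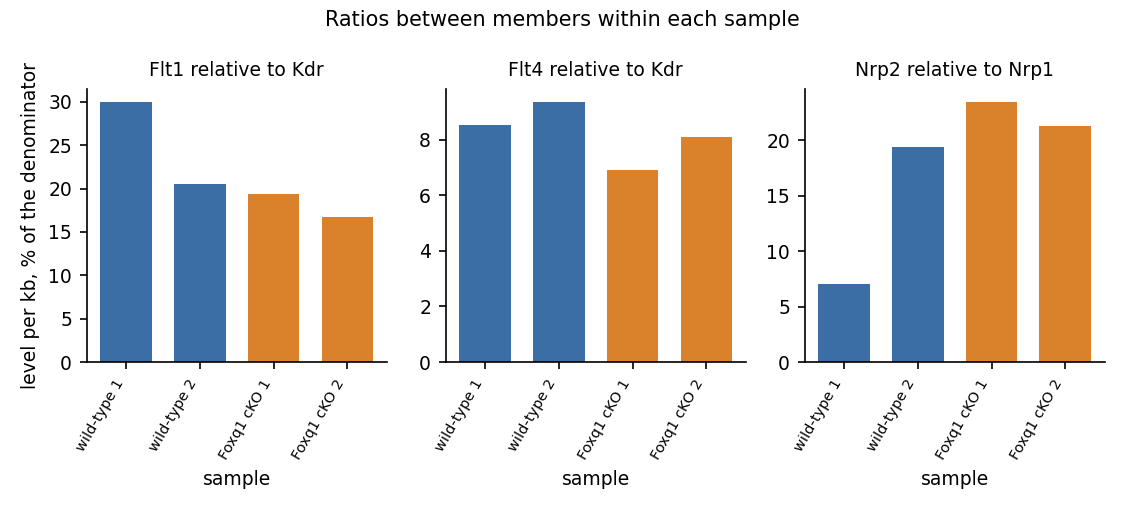
Level per kb of *Flt1* and *Flt4* as a percentage of *Kdr*, and of *Nrp2* as a percentage of *Nrp1*, in each sample, with wild-type in blue and *Foxq1* cKO in orange. The *Flt1* bar of wild-type 1 (30.0%) and the *Nrp2* bar of wild-type 1 (7.03%) stand apart from the other 3 bars of their panels.

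The bases before the start sites of *Flt1* and *Kdr* are shown because these receptor genes sit on the same chromosome and differed in their pattern across the samples. Each line gives the 250 bases before the RefSeq start site, 5′ to 3′ on the strand of the gene, from GRCm38.p6. Capitals mark GTTTC or its reverse complement GAAAC, the motif that the study names for FOXQ1.
*Flt1*, chr5:147726012-147726261, minus strand: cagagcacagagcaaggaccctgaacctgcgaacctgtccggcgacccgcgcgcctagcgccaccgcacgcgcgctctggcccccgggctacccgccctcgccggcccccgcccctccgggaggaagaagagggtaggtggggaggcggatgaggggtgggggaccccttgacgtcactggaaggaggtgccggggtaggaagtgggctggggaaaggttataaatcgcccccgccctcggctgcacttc
*Kdr*, chr5:75978456-75978705, minus strand: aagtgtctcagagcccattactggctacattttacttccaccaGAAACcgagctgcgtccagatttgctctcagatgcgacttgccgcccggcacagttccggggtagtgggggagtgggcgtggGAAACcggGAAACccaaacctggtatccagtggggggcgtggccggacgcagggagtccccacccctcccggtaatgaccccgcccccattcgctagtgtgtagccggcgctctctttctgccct

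The *Kdr* stretch held the motif 3 times, beginning 207, 125 and 117 bases before the start, and the *Flt1* stretch held none. Of the other members, *Nrp1* held 1, beginning 156 bases before its start, and *Flt4*, *Nrp2*, *Vegfb*, *Vegfc* and both start sites of *Pgf* held none. The motif was searched on both strands, and 39.7% of the 32851 promoters in the table held it in a window of this length, so it is common. The longer forkhead sequence TGTTTAC, with its reverse complement GTAAACA, was in none of the members' windows and in 3.17% of all promoters. Neither motif contains the other. Such matches are a description of the letters in these windows.

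The neuropilins differed from each other in their pattern. *Nrp1* (ENSMUSG00000025810), which binds VEGF-A and SEMA3A and presents ligand to VEGFR2, spans 128358604 to 128503363 on the plus strand of chromosome 8. Its level was 9659 normalized counts in wild-type 1, 9421 in wild-type 2, 8178 in *Foxq1* cKO 1 and 7148 in *Foxq1* cKO 2. The wild-type values were close to each other and the *Foxq1* cKO values both lay below them. The means were 9540.1 ± 168 (SD, n = 2) and 7663 ± 728 (SD, n = 2), so *Foxq1* cKO stood at 80.3% of wild-type. The difference was -0.32 on the log2 scale, with a standard error of 0.141 and a 95% interval from -0.66 to 0.024. It did not pass in limma (unadjusted p = 0.0634, adjusted p = 0.857), and it was -0.30 without wild-type 1. With any sample left out it lay between -0.42 and -0.22. GENCODE M21 places *Mir1903* within its exons, over 80 of 9785 exon bases.

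*Nrp2* (ENSMUSG00000025969), the co-receptor of VEGF-C and SEMA3F, spans 62703285 to 62818695 on the plus strand of chromosome 1. Its level was 822 normalized counts in wild-type 1, 2217 in wild-type 2, 2322 in *Foxq1* cKO 1 and 1841 in *Foxq1* cKO 2. Wild-type 1 was low, and the other 3 samples were near each other with wild-type 2 between the *Foxq1* cKO samples. The estimate of 0.61 on the log2 scale, with a standard error of 0.476 and an adjusted p of 0.873 in limma, rested on wild-type 1. Without that sample it was -0.10, and without wild-type 2 it was 1.33 with an unadjusted p of 0.00473 in limma. Per kb, *Nrp2* stood at 7.03% and 19.4% of *Nrp1* in wild-type against 23.5% and 21.3% in *Foxq1* cKO, a log2 difference of 0.93 against a spread within groups of 0.737 (exact permutation p = 0.333). Without wild-type 1 this difference was 0.20. An antisense gene, *Gm29083*, lies within the span of *Nrp2* and shares none of its exon bases.

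The 3 ligands lay below the receptors and *Nrp1*, and their groups overlapped. Per kb, *Pgf* ranked 5581, *Vegfc* 6131 and *Vegfb* 10861 among 12678 genes. *Pgf* (ENSMUSG00000004791, chromosome 12), which encodes placental growth factor, a ligand of VEGFR1, had 316 normalized counts in wild-type 1, 554 in wild-type 2, 370.1 in *Foxq1* cKO 1 and 262 in *Foxq1* cKO 2. Its log2 fold change of -0.42 had a 95% interval from -1.69 to 0.84, and it was -0.83 without wild-type 1 and -0.020 without wild-type 2. *Vegfc* (ENSMUSG00000031520, chromosome 8), the ligand of VEGFR3, had 179 normalized counts in wild-type 1, 320.0 in wild-type 2, 182 in *Foxq1* cKO 1 and 399.8 in *Foxq1* cKO 2. In both groups replicate 2 was the higher sample, and the log2 fold change was 0.17 with a 95% interval from -1.43 to 1.77. *Vegfb* (ENSMUSG00000024962, chromosome 19), a VEGFR1 ligand linked to lipid handling, rested on 25 reads in wild-type 1, 60 in wild-type 2, 36 in *Foxq1* cKO 1 and 26 in *Foxq1* cKO 2, or 21.1, 59.8, 39.2 and 26.4 normalized counts. The 95% exact Poisson interval was 16.2 to 36.9 reads for wild-type 1 and 45.8 to 77.2 reads for wild-type 2, so these samples of 1 group differed beyond counting error. Such an interval covers counting error only, since reads from 1 amplified molecule are not independent. The log2 fold change of *Vegfb* was -0.14 with a 95% interval from -2.59 to 2.31. The adjusted p-values of the 3 ligands in limma lay between 0.904 and 0.987.

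Across the 8 genes, 6 had a log2 fold change below 0 and 2 above 0, with a median of -0.21 beside 0.0086 over all genes tested, of which 49.3% were below 0. At an unadjusted p under 0.05 in limma, 1 member (*Flt1*) was lower and 0 were higher, where 3.05% of all genes tested were lower and 2.17% higher. *Flt1* was also the member lower at this p in DESeq2, where 3.77% of genes were lower and 2.72% higher (6.49% in all), and in edgeR, where 2.99% were lower and 1.99% higher (4.98% in all). In limma the count of members was 0 without wild-type 1, *Foxq1* cKO 1 or *Foxq1* cKO 2, where 824, 276 and 479 of all genes passed. It was 2 (*Flt1* and *Nrp2*) without wild-type 2, where 1576 of all genes passed. In *Flt1*, *Flt4* and *Nrp1* both *Foxq1* cKO values lay below both wild-type values, and 2249 of the 12472 genes tested (18%) showed that order. None of the 8 showed the opposite order, which 2239 genes (18%) did. No gene tested had an adjusted p under 0.05 in limma or edgeR (0.0% called), where 651 and 632 genes had an unadjusted p under 0.05. DESeq2 called 62 genes (0.488%) after adjustment, none of them a member. Of the 10 endothelial markers 8 had a log2 fold change below 0, with a median of -0.16, and their summed level was 225288 to 246686 normalized counts in wild-type and 203966 to 222899 in *Foxq1* cKO. None of the 10 passed an unadjusted p of 0.05. Both *Foxq1* cKO values lay below both wild-type values in 5 of these 10 markers and above both in 1. Scaled to these markers, which shifted the median of all genes to 0.14, the log2 fold change was -0.36 for *Flt1* (unadjusted p = 0.108 in limma), -0.19 for *Nrp1* and -0.15 for *Flt4*, and the median of the 8 members was -0.082. With this scaling 3.22% of genes were higher and 1.81% lower at an unadjusted p under 0.05.

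**Figure D4:**
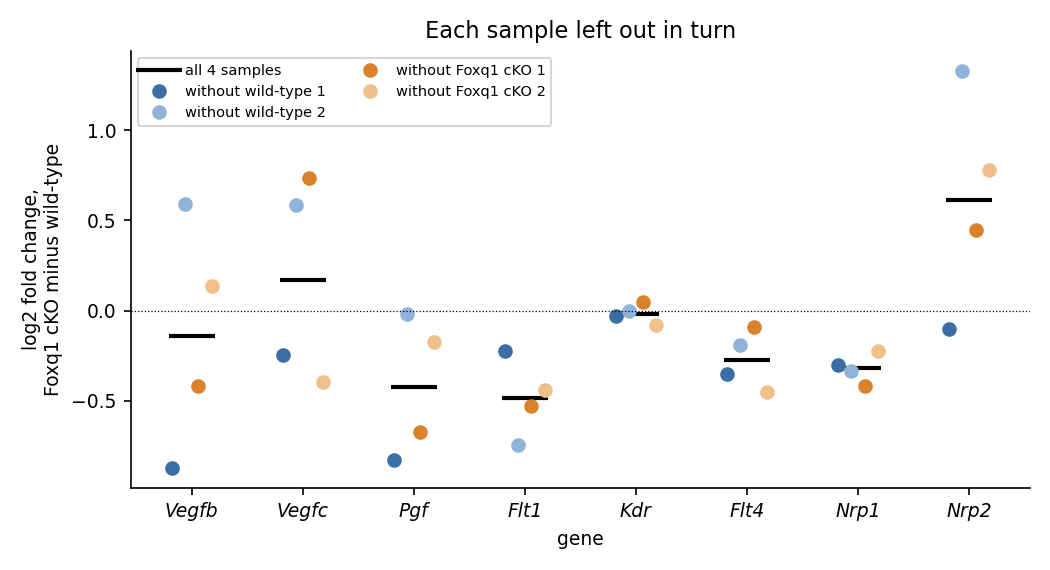
Log2 fold change, *Foxq1* cKO minus wild-type, of each VEGF family gene with all 4 samples (black bars) and with each sample left out (coloured points). *Nrp1* stays between -0.42 and -0.22 and *Kdr* near 0, whereas *Nrp2* lies at -0.10 without wild-type 1.

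The genes that act with these receptors were compared through 5 lists, which held 88 tested genes. At an unadjusted p under 0.05 in limma 5 of the 88 were lower and 0 were higher. Of all genes tested 3.05% were lower and 2.17% higher, 5.22% in either direction. The share called in either direction was near the background. The share lower was above it, on 5 genes, and this difference was not tested. DESeq2 and edgeR also gave 5 genes each. In edgeR these were the same genes as in limma. In DESeq2 *Cd63* did not pass (unadjusted p = 0.0501), whereas *Apln*, from the list of VEGF-responsive transcripts, was lower (unadjusted p = 0.0262). Which genes passed also depended on the samples kept. None passed adjustment (adjusted p = 0.857 for each of the 5 in limma). Among 42 tested genes of receptor signalling, from phospholipase C gamma to the kinases of the ERK and AKT arms, 2 were lower, 0 were higher and 40 did not pass, with a median log2 fold change of 0.017. *Akt2*, a kinase of the PI3K arm, had 2055 and 2574 normalized counts in wild-type against 1232 and 1489 in *Foxq1* cKO (log2 fold change -0.76, unadjusted p = 0.0212). *Hspb1*, a small heat shock protein phosphorylated downstream of p38, had 3877 and 4073 against 2083 and 2705 (log2 fold change -0.74, unadjusted p = 0.0114). The groups did not overlap for either gene, an order that 18% of all genes tested showed. *Akt2* did not pass without wild-type 2 (unadjusted p = 0.0942) or *Foxq1* cKO 1 (unadjusted p = 0.117), nor *Hspb1* without *Foxq1* cKO 1 (unadjusted p = 0.0773, all from limma). *Plcg1*, which docks on VEGFR2, had a log2 fold change of -0.082, and the endothelial nitric oxide synthase gene *Nos3* 0.12. *Plcg1* and *Nos3*, like *Apln*, *Cdh5*, *Ptprb*, *Sema3f* and *Dll4* in the other lists, were chosen after their values were seen.

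At an unadjusted p under 0.05 in limma 3.05% of all genes tested were lower. Among 18 tested receptor partners, which bind the receptors at junctions or carry them through endosomes, 1 was lower and 17 did not pass. This was *Cd63*, a tetraspanin, with 3665 and 3238 normalized counts in wild-type against 2405 and 2583 in *Foxq1* cKO (log2 fold change -0.47, unadjusted p = 0.0475), and its p passed 0.05 in 6 of 12 alternatives and in no fit with a sample left out. *Cdh5*, the VE-cadherin gene whose product holds VEGFR2 at junctions, had a log2 fold change of 0.12, and *Ptprb*, a phosphatase that acts on VEGFR2, -0.21. Of 12 semaphorin and plexin genes that work with neuropilins, 8 were tested and none passed, with a median of 0.036. The lowest was *Sema3f*, a repulsive ligand of *Nrp2*, with 236 and 90.7 normalized counts against 40.3 and 36.6 (log2 fold change -1.90, unadjusted p = 0.0692 in limma).

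Of 19 transcripts known to respond to VEGF-A in endothelial cells, 12 were tested, 2 were lower, 0 were higher and 10 did not pass, beside 3.05% of all genes lower. The median log2 fold change was -0.31, or -0.18 when scaled to endothelial markers, and 10 of the 12 were below 0, beside 49.3% of all genes. *Egr1*, an immediate early transcription factor, had 12483 and 11349 normalized counts in wild-type against 8486 and 8734 in *Foxq1* cKO (log2 fold change -0.47, unadjusted p = 0.0112). *Angpt2*, an antagonist of TIE2 and a tip cell gene, had 1823 and 1086 against 544 and 701 (log2 fold change -1.19, unadjusted p = 0.0179). Values of both genes did not overlap between the groups, as in 18% of all genes tested, and wild-type 1 was the highest sample for each. Without wild-type 1 the log2 fold change of *Angpt2* was -0.81 with an unadjusted p of 0.0902 in limma, and that of *Egr1* was -0.40 with an unadjusted p of 0.0559. Without *Foxq1* cKO 1 neither passed (unadjusted p = 0.0963 for *Angpt2* and 0.0583 for *Egr1* in limma). *Dll4*, the Notch ligand of tip cells, had a log2 fold change of 0.30 and did not pass (unadjusted p = 0.124 in limma). The 8 genes of the hypoxia pathway, which controls VEGF ligands in many cells, included none that passed, with a median of -0.016.

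**Figure D5:**
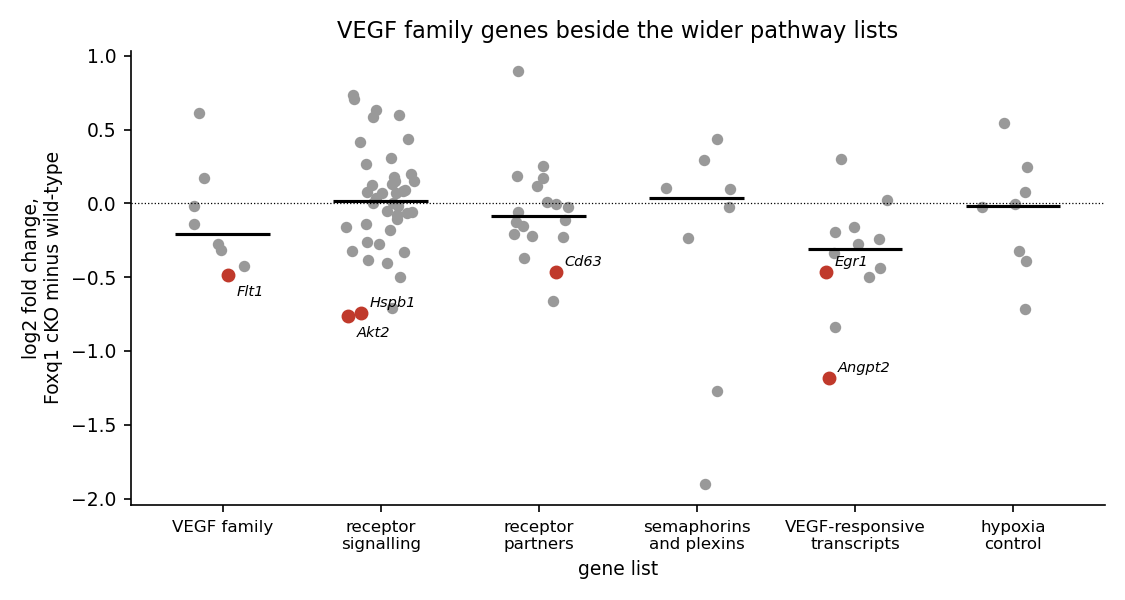
Log2 fold change, *Foxq1* cKO minus wild-type, of the VEGF family genes and of the genes of 5 pathway lists, with list medians as black lines and genes at an unadjusted p under 0.05 in limma in red. The 6 red genes, *Flt1*, *Akt2*, *Hspb1*, *Cd63*, *Egr1* and *Angpt2*, all lie below 0, and the list medians lie between -0.31 and 0.036.

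Markers of other cells are given beside these values. The summed level of 9 microglia and macrophage markers was 9726 to 12100 normalized counts in wild-type and 7225 to 7594 in *Foxq1* cKO, with 1 of 9 lower at an unadjusted p under 0.05 in limma, *Csf1r* (log2 fold change -0.83), beside 3.05% of all genes. Of these 9 markers 6 were below 0 and 3 above, the latter being *Ptprc* (2.38), *Mrc1* (0.24) and *Aif1* (0.063), which did not pass. Of 9 radial glia and astrocyte markers 1 was lower, *Gfap* (log2 fold change -1.19, adjusted p = 0.857 in limma and 0.0158 in DESeq2). The sums were 26010.1 to 26815 in wild-type and 23451 to 25851 in *Foxq1* cKO. In that list 5 markers were below 0 and 4 above. The groups did not overlap in 5 lower markers and in 2 higher ones, *Nes* (0.43) and *Aqp4* (0.13). Each of these orders was shown by 18% of all genes tested, and *Nes* and *Aqp4* did not pass in limma. The 7 pericyte markers tested summed to 152594 to 154802 normalized counts in wild-type and 145490 to 159999 in *Foxq1* cKO, and 0 of 7 passed. The sums of 9 neuron markers (5756 to 6401 and 4334 to 6003), 3 oligodendrocyte lineage markers, 6 erythroid markers and 3 fibroblast markers overlapped between the groups, with 0 passing. No listed gene was at 0 in any sample, because the table lists no gene with fewer than 1 read. The part of these cells in the *Flt1* and *Nrp1* values was not tested.

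The genes whose log2 values moved most like those of *Kdr* over the 4 samples, by Euclidean distance after centring among 10479 other genes with a mean of at least 100, were *Mmrn2*, an endothelial matrix glycoprotein gene, *Itgb1*, the integrin beta 1 gene, and *Rpap1*, at distances of 0.0431, 0.0432 and 0.0436. For *Nrp1* they were *Nxpe4*, *Acadl* (a fatty acid oxidation enzyme) and *Zfp423*, at 0.0391, 0.0471 and 0.0472. *Kdr* itself ranged only from 33143 to 36162 normalized counts, so the genes nearest to it are genes that also varied little. Among so many genes some lie near any pattern of 4 values, and shared control was not tested.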

How the data were processed

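RNA-seq of E18 wild-type and *Foxq1* cKO brain was analysed (CD31-sorted cortical cells per the methods of the study, total RNA of brain per the labels), with 2 samples in each group. Groups and replicate numbers were taken from the sample titles. The submitters' processing notes name Bowtie2 2.2.3, TopHat2 2.0.12, HTSeq 0.6.0 and mm9, with no role or order. The authors deposited a normalized signal, that is, reads per gene divided by 1 size factor per sample. All values (100% in each sample, within 0.01 of a read) were whole multiples of the value of 1 read, so read counts could be recovered. The 1207361 lines of the table repeat each gene with identical values and were collapsed to 12693 gene symbols.

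Normalized values were log2-transformed after adding a pseudocount of 1 and compared with limma 3.58.1 in R 4.3.3 (lmFit, eBayes with a trend) for the 12472 genes with a mean of at least 10, with Benjamini-Hochberg adjustment. Ratios between members were compared with an exact two-sided permutation test over samples (scipy 1.17.1). Exon lengths came from GENCODE M21 (GRCm38), which held 12685 of the identifiers, and promoter sequences from RefSeq on GRCm38.p6. For 91.1% of the matched identifiers the number of lines in the table equalled the number of lines in GENCODE M21, although the notes name mm9.

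Alternatives were pseudocounts of 0.1 and 5 (0 and 5 for ratios), no filter, a minimum mean of 50, quantile and TMM scaling, scaling to endothelial markers, eBayes without a trend, no moderation, DESeq2 1.42.0 and edgeR 4.0.16 on the recovered reads, the replicate number as a block, and each sample left out in turn. A fit without 1 sample leaves a lone sample in its group, which is assumed to vary like the others. The tests were first run on simulated counts with known changes. At a true log2 fold change of 1, limma called 47.4% of the changed genes at an unadjusted p under 0.05. After adjustment it called 1.53% of them. At a true log2 fold change of 2 these shares were 74.5% and 26.5%. A gene that did not pass may therefore still have changed.

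The members and the gene lists were chosen with earlier results of these data known. The rule for named genes gave the members, *Foxq1*, genes of the pathway lists with an unadjusted p under 0.05, and the 3 genes closest in pattern to *Kdr* and to *Nrp1* among genes with a mean of at least 100. Further genes of the pathway and marker lists are named outside this rule and were chosen after their values were seen. *Vegfa* and its planned ratios were not analysed here. Figures were drawn with matplotlib 3.10.9.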

Additional observations from a re-analysis of the deposited data

How the results depend on the processing

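With the 4 samples kept, the 12 alternatives left the sign of each member unchanged except for *Kdr*, whose log2 fold change was 0.11 under quantile normalization and 0.11 when scaled to endothelial markers. *Flt1* no longer passed an unadjusted p of 0.05 under quantile normalization (-0.38), with eBayes without a trend (-0.48), without moderation (-0.48) and scaled to endothelial markers (-0.36), so the count of members past it was 0 in these 4 settings against 1. *Foxq1* did not pass it without moderation (-4.47). Of the pathway genes 2 passed with eBayes without a trend against 5, with *Akt2*, *Hspb1*, *Cd63* and *Egr1* lost. Without moderation 6 passed, but *Akt2*, *Hspb1* and *Angpt2* did not (unadjusted p = 0.0693, 0.0606 and 0.104). At an adjusted p under 0.05 there were 62 genes in DESeq2 and 0 in limma, where 651 had an unadjusted p under 0.05. The causes were not tested.

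With the replicate number as a block, *Flt1* (-0.48, unadjusted p = 0.0204 in limma) was again the member that passed. Same-numbered samples correlated at 0.0325 in their deviations from the group means across 12472 genes. With 2 samples in each group this cannot settle whether same-numbered samples shared a litter or a batch. The block changed no call among the members. Of the pathway genes *Cd63* no longer passed (unadjusted p = 0.0625 in limma), as it did not in 5 other of the 12 alternatives.

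In the 4 fits that each omit 1 sample, estimates lay between -0.87 and 0.59 for *Vegfb*, -0.40 and 0.74 for *Vegfc*, -0.83 and -0.020 for *Pgf*, -0.45 and -0.093 for *Flt4*, -0.74 and -0.22 for *Flt1*, -0.080 and 0.045 for *Kdr*, and -0.10 and 1.33 for *Nrp2*. Genes at an unadjusted p under 0.05 numbered 276 to 1576, members 0 to 2 and pathway genes 0 to 7. *Vegfb* had no value at a minimum mean of 50.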
